A study of Oryza sativa with 58 samples.

Results

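Young leaf transcriptomes of Aus rice, represented by the varieties HKG 98 and Garia, were compared with those of Aromatic rice, represented by Gasym Hany and BASMATI 385. Each variety has 2 RNA-Seq libraries, so that the comparison holds 8 of the 58 libraries of the study, 4 in each subpopulation. The 8 libraries were selected by variety, tissue and gene identifiers, a rule that uses no measured value. All leaves came from untreated 2-week-old seedlings grown hydroponically in a phytotron, and the varieties carry no transgene. A subpopulation is modelled here by 2 varieties, and nothing states whether the 2 libraries of a variety came from separate plants, so the spread between them may be technical. The other 13 varieties with the same identifiers, in 26 libraries, are 7 Xian (indica), 5 Intermediate and 1 Geng (japonica) variety, and they were used to estimate the spread between varieties and to see which side they resembled. The tissue label was not checked against marker genes, because the name table used here matched 0 of the 55986 gene identifiers.

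Cultivated Asian rice is divided into the large Xian and Geng groups and smaller groups that include Aus and Aromatic rice. Aus rices are early-maturing types of South Asia, known as a source of tolerance to drought, submergence and poor soils, and are genetically nearer to Xian. Aromatic rices, which include the basmati types, are nearer to Geng in most of the genome and carry ancestry shared with Aus. Genes that differ between such groups can differ in their regulation, in their sequence or in whether the genome holds them at all.

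The values are FPKM, that is fragment counts divided by gene length and by the mapped fragments of each library, listed for the genes of the MSU7 annotation. That annotation was made on Nipponbare, a Geng variety. Reads that do not match its genes would be missing, so a lower level, a diverged sequence and an absent gene cannot be told apart at any gene below. Sums of FPKM ran from 719871 to 1442721 in the 8 libraries, and the 3 highest genes took between 7.65% and 22.5% of them. Between 19440 and 19514 genes exceeded 1 FPKM in the Aus libraries and between 19732 and 19933 in the Aromatic libraries, with no overlap. The number of reads is unknown. Steps between low values, which are set by the worth of 1 fragment, divided the 34 libraries into 2 classes. HKG 98, Gasym Hany and BASMATI 385 replicate 2 were among the 20 libraries of the first class, while both Garia libraries and BASMATI 385 replicate 1 were among the 14 of the second. Within their class, the estimated depth of the 8 libraries ranged from 0.509 to 1 relative to HKG 98 replicate 1 and from 1 to 1.42 relative to Garia replicate 1. The class of HKG 98 and of Garia cannot be told apart from the variety, so values within each class are given for the 4 genes named below. Within the second class, these compare Garia with BASMATI 385 replicate 1 alone.

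At the level of the whole transcriptome, the Aromatic varieties resembled each other more than they resembled Aus rice. For HKG 98, the values with BASMATI 385 overlapped those with Garia. Spearman correlations over the 21081 genes tested were between 0.970 and 0.989 for the 2 libraries of a variety. They were between 0.908 and 0.914 for HKG 98 with Garia, between 0.914 and 0.932 for Gasym Hany with BASMATI 385, and between 0.885 and 0.915 for Aus with Aromatic libraries, with 0.904 to 0.915 for HKG 98 with BASMATI 385. The share of genes that differed by more than 1.5 on the log2 scale between 2 libraries was 4.11% to 5% within Aromatic rice and 5.78% to 6.23% within Aus. It was 5.46% to 6.15% for HKG 98 with BASMATI 385, 5.68% to 6.18% for HKG 98 with Gasym Hany, 6.49% to 6.86% for Garia with BASMATI 385 and 7.14% to 7.63% for Garia with Gasym Hany. These values share libraries and are given as a description. Every pair of HKG 98 with Garia crosses the 2 library classes. Each HKG 98 library correlated at 0.904 with BASMATI 385 replicate 1, of the other class, and at 0.915 with replicate 2, of its own class. HKG 98 and Garia were each other's nearest variety among the 17 (0.920 on variety means). BASMATI 385 was nearest to Gasym Hany (0.931), whereas Gasym Hany was nearest to the Intermediate variety Ginga (0.942), before BASMATI 385.

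Single varieties differed at many genes, also within a subpopulation. With libraries as units, and the spread taken from the 2 libraries of each of the 17 varieties, limma called 5.09% of tested genes between HKG 98 and Gasym Hany (1074 genes) and 4.78% between HKG 98 and BASMATI 385 (1008 genes). It called 6.17% between Garia and Gasym Hany (1301 genes) and 5.52% between Garia and BASMATI 385 (1163 genes). The 2 Aus varieties already differed at 4.69% (989 genes) and the 2 Aromatic varieties at 3.56% (751 genes). The pairs across subpopulations thus lay above the pairs within them, by a margin as narrow as 4.78% against 4.69%, and the order was not tested. Of the pairs across, those with Garia had the larger counts. Both Garia libraries are of the second class, which cannot be told apart from the variety here.

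**Figure D1:**
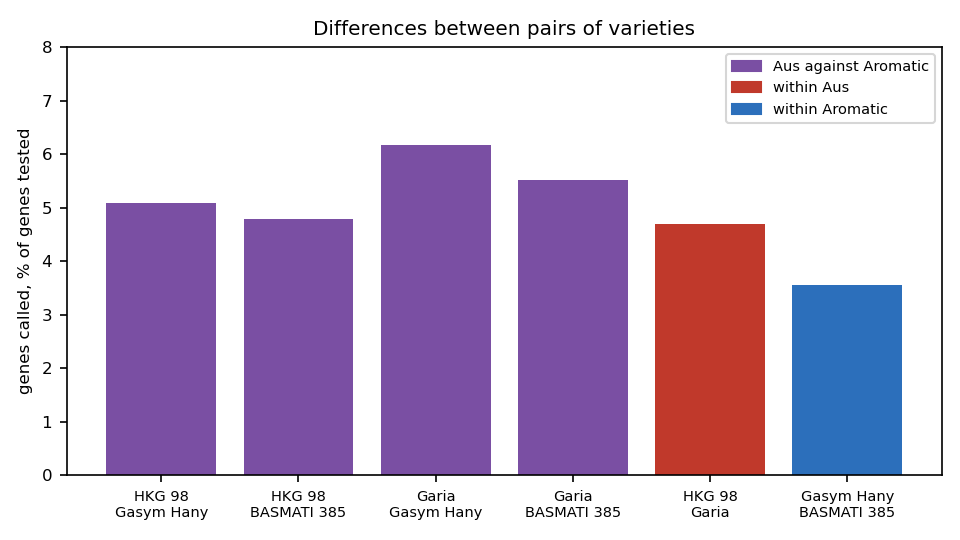
Percent of the 21081 tested genes called between each pair of varieties, with libraries as units (adjusted p below 0.05 and a log2 difference above 1.5). Purple bars are Aus against Aromatic pairs (4.78% to 6.17%), the red bar is the pair within Aus (4.69%) and the blue bar the pair within Aromatic (3.56%); a bar is 1 fit and has no error bar.

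Differences shared by both varieties of each subpopulation were few. With 1 mean per variety, limma called 38 of 21081 genes (0.180%). A call required a log2 difference above 1.5 together with an adjusted p, by the Benjamini-Hochberg method, of less than 0.05. Of these, 16 were higher in Aus (0.0759%) and 22 higher in Aromatic rice (0.104%). Without the limit on the fold, 50 genes passed (0.237%), and 1286 genes (6.10%) had an unadjusted p below 0.05. The median log2 difference over all tested genes was 0.02. All fold changes are on the log2(FPKM + 1) scale, which understates the change of low genes. The libraries of the 2 subpopulations did not overlap at 33 of the 38 genes (0.157% of those tested). Among all tested genes, called or not, they did not overlap at 16.4%, a share that includes the 33. The 38 genes were called on the difference between these same libraries, so the lack of overlap is no separate support for them. With libraries as units, which treats the 2 libraries of a variety as independent, 701 genes were called (3.33%), the 38 among them. With the 4 varieties alone and no other variety to estimate the spread, limma called 44 genes (0.209%), 6 higher in Aus and 38 higher in Aromatic rice, of which only 5 were among the 38. Both fits have the same log2 differences by construction, and only the spread is different. With 1 of the 4 varieties left out, 108 genes were called without HKG 98, 94 without Garia, 81 without Gasym Hany and 64 without BASMATI 385, and the share higher in Aromatic rice went from 57.9% to 35.2%, 46.8%, 75.3% and 82.8%, respectively.

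The called genes with the largest differences, among those with a mean of at least 10 FPKM and no overlap of libraries, were near 0 in one subpopulation. Genes that were not called reached absolute differences of up to 8.91. LOC_Os01g66850 on chromosome 1 read 0.065 and 0 FPKM in HKG 98 and 0 and 0.125 FPKM in Garia. It read 51.2 and 48.3 FPKM in Gasym Hany and 29.7 and 31.6 FPKM in BASMATI 385. Each Aromatic library was thus far above each Aus library, with means of 40.2 ± 13.5 and 0.0473 ± 0.0211 FPKM (SD, n = 2 varieties each). The log2 difference of Aus minus Aromatic was -5.26 (SE 0.29, adjusted p = 1.46e-07 by limma with Benjamini-Hochberg adjustment). The gene read between 28.0 and 51.8 FPKM in the Xian varieties, between 41.4 and 68.3 FPKM in the Intermediate varieties and 43.5 FPKM in Latisai1, the Geng variety, so that the 2 Aus varieties stood apart from the other 15. With first-class libraries only the log2 difference was -5.30, and with second-class libraries only -4.85.

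LOC_Os01g43895, also on chromosome 1, was listed at 0 in the 4 Aus libraries. It read 32.6 and 27.3 FPKM in Gasym Hany and 29.9 and 25.9 FPKM in BASMATI 385, a mean of 28.9 ± 1.46 FPKM (SD, n = 2 varieties). No fold is given against a group at 0; the difference on the log2(FPKM + 1) scale was -4.90 (SE 0.73, adjusted p = 0.0101 by limma with Benjamini-Hochberg adjustment). The Xian varieties lay in between, from 3.47 to 7.23 FPKM. Latisai1 had a mean of 25.2 FPKM, close to the Aromatic varieties, but its libraries read 36.0 and 14.4 FPKM. Of the Intermediate varieties, Ginga read 34.2 FPKM and the others from 2.93 to 8.56 FPKM. With first-class libraries only, where HKG 98 is the one Aus variety, the adjusted p by limma was 0.0648 at a log2 difference of -4.85. With second-class libraries only, where Garia is set against BASMATI 385 replicate 1 alone, the log2 difference was -4.95.

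In the other direction, LOC_Os09g08920 on chromosome 9 read 26.1 and 22.5 FPKM in HKG 98 and 21.3 and 26.98 FPKM in Garia. It read 0.374 and 0.227 FPKM in Gasym Hany and 0.728 and 0 FPKM in BASMATI 385. The means were 24.2 ± 0.105 FPKM in Aus and 0.332 ± 0.0450 FPKM in Aromatic rice (SD, n = 2 varieties each), and the log2 difference was 4.26 (SE 0.21, adjusted p = 5.22e-08 by limma with Benjamini-Hochberg adjustment). None of the other 13 varieties exceeded 0.367 FPKM, so this transcript was at a level above 20 FPKM in the 2 Aus varieties alone among the 17. Its log2 difference was 4.47 with first-class and 3.85 with second-class libraries only.

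LOC_Os06g49930 on chromosome 6 read 17.6 and 19.5 FPKM in HKG 98 and 12.2 and 11.3 FPKM in Garia, a mean of 15.1 ± 4.81 FPKM (SD, n = 2 varieties), and was listed at 0 in the 4 Aromatic libraries. The difference on the log2(FPKM + 1) scale was 3.98 (SE 0.63, adjusted p = 0.0139 by limma with Benjamini-Hochberg adjustment). It was listed at 0 in the Xian varieties and Latisai1, and reached 5.13 FPKM in 1 Intermediate variety. This call was lost with a pseudocount of 0.1 (adjusted p = 0.0822 by limma), with the 4 varieties only (0.0540), without HKG 98 (0.0538) and without BASMATI 385 (0.0520). The log2 difference was 4.29 with first-class and 3.67 with second-class libraries only.

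**Figure D2:**
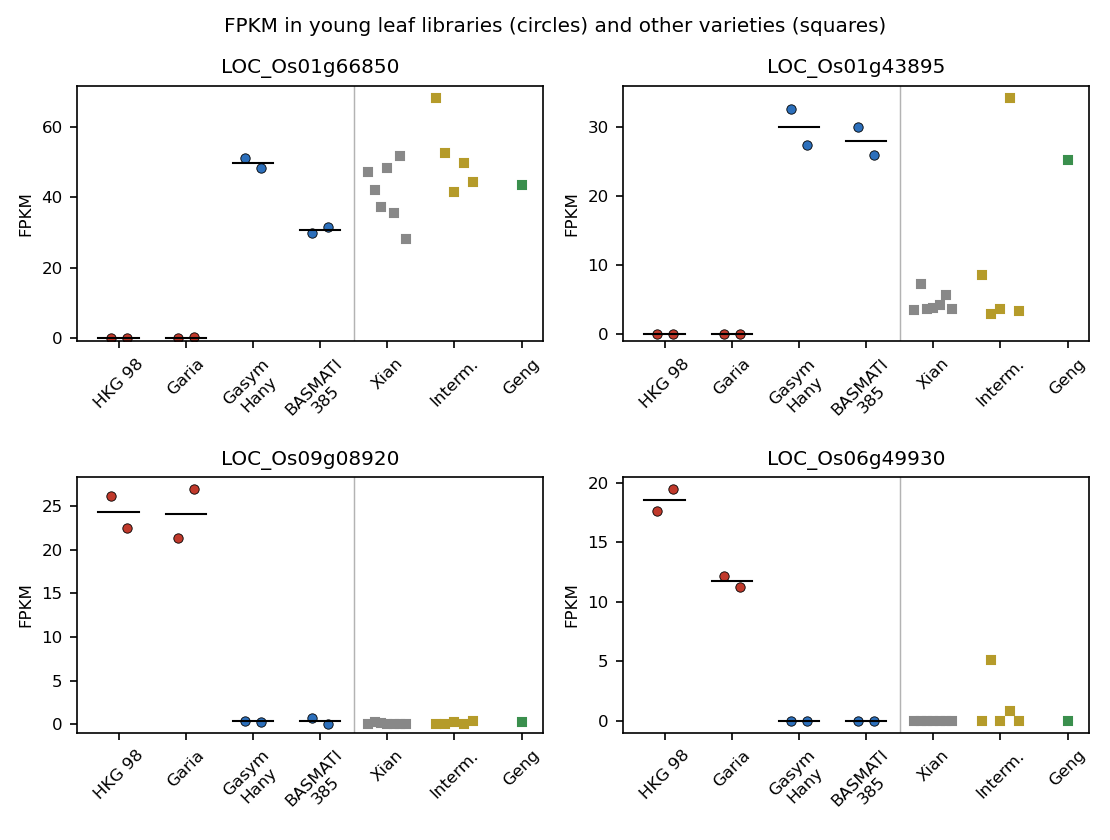
FPKM of LOC_Os01g66850, LOC_Os01g43895, LOC_Os09g08920 and LOC_Os06g49930; circles are libraries of the 2 Aus (red) and 2 Aromatic (blue) varieties with a line at the variety mean, and squares are means of the Xian, Intermediate and Geng varieties. The 8 libraries separate completely at each gene, the other varieties resemble the Aromatic varieties at LOC_Os01g66850, and the 13 others stay at or below 0.367 FPKM at LOC_Os09g08920.

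Of the 22 genes higher in Aromatic rice, 13 read under 0.1 FPKM in each of the 4 Aus libraries. In 12 of the 22 the gene was listed at 0 there and entered the test through its Aromatic level alone. Values at 0 in other varieties narrow the spread, so these counts are partly set by the filter and the test. In the wider set below, without a test, 32.0% of the genes higher in Aromatic rice were listed at 0 in Aus. Absolute log2 differences ran from 1.68 to 5.26, and mean levels in Aromatic rice from 2.25 to 223 FPKM. At 18 of the 22 genes the other 13 varieties all lay on one side, and at the remaining 4, LOC_Os01g43895 among them, they were split. The spread of the test comes mainly from these same varieties, so genes that vary within Xian or Intermediate rice are less readily called. Lying on one side is thus partly set by the test and is no separate support. At 10 of the 22 genes all 13 were nearer to the Aromatic level, so that Aus rice stood apart by a low value. A chromosome 2 gene of this kind read at most 0.107 FPKM in the Aus libraries, between 19.7 and 21.8 FPKM in the Aromatic libraries and between 14.2 and 31.3 FPKM in the Xian varieties. At 8 of the 22 all 13 were nearer to the Aus level, so that Aromatic rice stood apart by a high value. A chromosome 9 gene of this kind read at most 0.306 FPKM in the Aus libraries, between 14.7 and 24.3 FPKM in the Aromatic libraries and at most 0.189 FPKM in the Xian varieties. The most abundant gene, on chromosome 11, read from 52.0 to 82.6 FPKM in Aus, from 186 to 266 FPKM in Aromatic and from 53.8 to 99.1 FPKM in Xian rice, a log2 difference of -1.74, and it is an example of a transcript present on both sides.

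The 16 genes higher in Aus rice had absolute log2 differences from 1.58 to 4.26 and mean Aus levels from 2.32 to 28.7 FPKM. Here 5 of the 16 were listed at 0 in the 4 Aromatic libraries and entered the test through their Aus level alone. In the wider set below, 19.3% of the genes higher in Aus were listed at 0 in Aromatic rice. Again, the test favours genes that vary little within Xian or Intermediate rice. At 6 genes all 13 other varieties were nearer to the Aromatic level, which places the Aus varieties apart by a high value, as for LOC_Os09g08920. At 3 genes all 13 were nearer to the Aus level, which places the Aromatic varieties apart by a low value. One of the latter, on chromosome 7, read 24.2 and 23.2 FPKM in HKG 98 and 11.7 and 11.01 FPKM in Garia, but between 1.80 and 4.98 FPKM in the Aromatic libraries, while the Xian varieties read between 16.1 and 29.5 FPKM. Latisai1 was nearer to the Aromatic level at 9 of the 16 genes and at 11 of the 22 higher in Aromatic rice, against 53.9% of all tested genes.

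Part of the list rests on a spread taken from varieties without the transcript. The other 13 varieties were all under 1 FPKM at 6 of the genes higher in Aromatic rice and at 5 of those higher in Aus. LOC_Os09g08920 and the chromosome 9 gene described above are among these 11; for LOC_Os09g08920 the adjusted p by limma was 0.0186 with the 4 varieties only, against 5.22e-08 with the 17. Of these 11 genes, 4 had overlapping libraries. A chromosome 8 gene listed at 0 in the Aus libraries read 143 and 77.4 FPKM in Gasym Hany but 0 and 47.0 FPKM in BASMATI 385. A chromosome 2 gene read 0 and 4.88 FPKM in Gasym Hany and 43.8 and 0 FPKM in BASMATI 385. Libraries of 1 variety thus differed by as much as the subpopulations at these genes, although they passed the test.

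**Figure D3:**
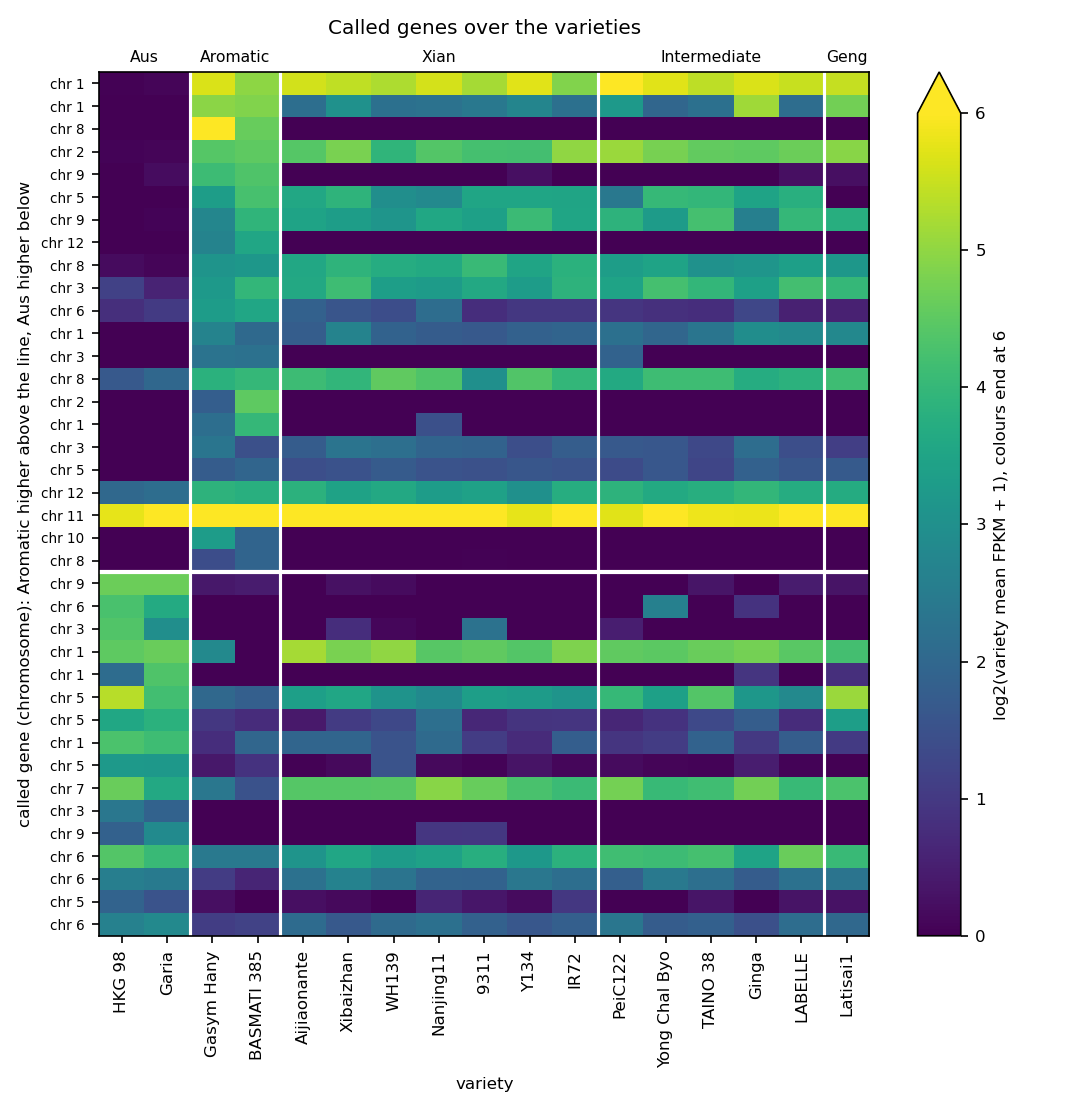
Levels of the 38 called genes, one row per gene labelled by its chromosome, over the 17 varieties as log2(variety mean FPKM + 1), with colours ending at 6. The 22 genes above the white line are higher in Aromatic rice and the 16 below are higher in Aus; in the upper block some rows are bright in all columns but the 2 Aus columns, and others are bright in the 2 Aromatic columns only.

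A wider set without a test is useful to see what the 2 Aus varieties share against the 2 Aromatic varieties. At 462 genes (2.19% of those tested) the libraries did not overlap and the log2 difference exceeded 1.5, with 171 genes higher in Aus and 291 higher in Aromatic rice. The lower subpopulation was listed at 0 in its 4 libraries at 33 of the 171 genes higher in Aus (19.3%) and at 93 of the 291 higher in Aromatic rice (32.0%). The median level in the higher subpopulation was 12.2 FPKM for the genes higher in Aus and 8.79 FPKM for those higher in Aromatic rice. Between 106 and 145 of the 291 genes were nearer to the Aromatic level in a Xian variety (36.4% to 49.8%), against 183 of the 291 (62.9%) in Latisai1. Of the Intermediate varieties, Ginga (63.2%), LABELLE (62.2%) and TAINO 38 (57.0%) lay above the range of the Xian varieties, and PeiC122 (45%) and Yong Chal Byo (42.6%) lay within it. For the 171 genes higher in Aus the Xian varieties were nearer to the Aromatic level at 55.6% to 64.3%, the Intermediate varieties at 48.5% to 71.9% and Latisai1 at 60.8%. Over all tested genes the shares were 52.3% to 55.0% in Xian varieties, 51.7% to 59.1% in Intermediate varieties and 53.9% in Latisai1. Of the 38 called genes, the difference exceeded 1.5 within the first library class at 35, within the second at 34 and within both at 31. The direction at the 33 genes without overlap is fixed by that property in any subset of libraries, so these counts say nothing of an influence of the class.

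Genes present in one subpopulation and near 0 in the other were more often present in Aromatic rice. At 10 FPKM or more in each of the 4 libraries of one subpopulation and under 0.1 FPKM in each of the other, 30 genes (0.142%) were found, 23 of them high in Aromatic and 7 high in Aus rice. Of these, 17 and 5, respectively, were listed at 0 in all 4 libraries of the low subpopulation. Only LOC_Os01g43895 and LOC_Os06g49930 were also called. At 14 of the 23 genes high in Aromatic rice some but not all Xian varieties were above 1 FPKM, 3 were above it in all 7 Xian varieties and 6 in none. Latisai1 was above 1 FPKM at 14 of the 23. All 5 Intermediate varieties were above it at 4 of the 23, and none of them at only 1. The highest of the 23, on chromosome 6, read 174 and 90.8 FPKM in Gasym Hany and 622 and 130 FPKM in BASMATI 385, and its adjusted p by limma was 0.0566. Other members were even across the Aromatic libraries. A chromosome 8 gene read 38.9, 35.8, 37.3 and 39.2 FPKM there, and a chromosome 7 gene read 20.7, 21.4, 21.9 and 19.6 FPKM, both listed at 0 in the Aus libraries.

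Among the 7 genes high in Aus rice, the levels often differed between the 2 varieties. A chromosome 11 gene listed at 0 in the Aromatic libraries read 48.7 and 42.7 FPKM in HKG 98 and 502 and 735 FPKM in Garia. A chromosome 1 gene read 40.1 and 46.6 FPKM in HKG 98 and 231 and 193 FPKM in Garia. A chromosome 8 gene was even, with 14.4 and 16.1 FPKM in HKG 98 and 16.1 and 15.2 FPKM in Garia. By the same limits between single varieties, 119 to 132 genes separated an Aus from an Aromatic variety, 102 separated HKG 98 from Garia and 71 separated Gasym Hany from BASMATI 385. Gasym Hany was the high variety at 90 of the 119 genes that separated it from HKG 98, at 99 of the 132 that separated it from Garia and at 60 of the 71 that separated it from BASMATI 385. BASMATI 385 was the high variety at 74 of 132 genes against HKG 98 and at 81 of 130 against Garia, a more even split.

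The genes of the wider set were spread unevenly over the chromosomes and often lay side by side, where neighbours may share a haplotype and are not independent. The unevenness was not tested. The position of a gene was read from its MSU7 identifier, which gives the chromosome and the order of loci. The share of tested genes in the wider set ran from 0.828% on chromosome 4 to 3.97% on chromosome 8 and 3.95% on chromosome 11. The 38 called genes made up 0.341% of the tested genes on chromosome 5, 0.340% on chromosome 9, 0.231% on chromosome 1, where they were most numerous (7 genes), and 0 on chromosome 4, against 0.180% over all chromosomes. Of the 462 genes, 137 (29.7%) had another gene of the set with the same or the other direction next to them among the tested genes. The set is 2.19% of the tested genes, and a gene has up to 2 neighbours.

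**Figure D4:**
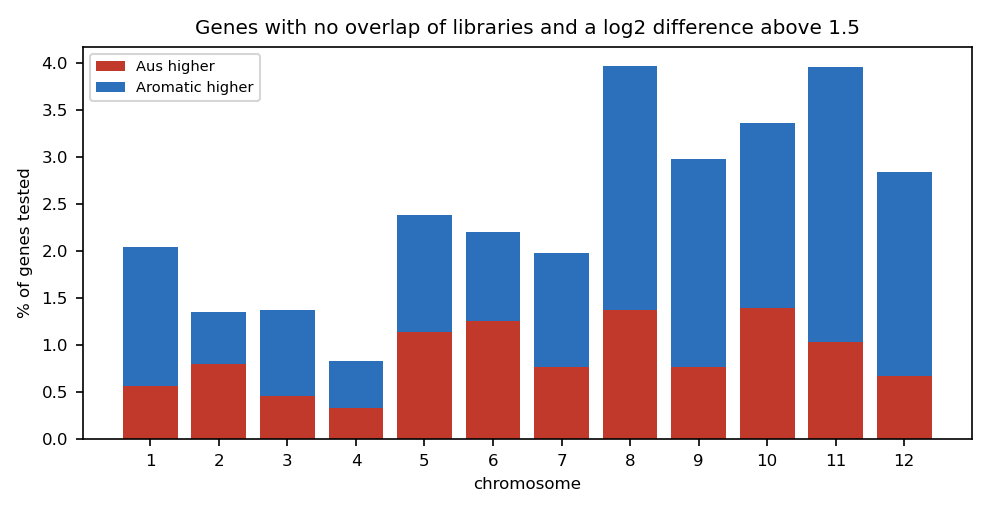
Share of the tested genes of each chromosome whose libraries did not overlap and whose log2 difference exceeded 1.5, split into genes higher in Aus (red) and higher in Aromatic rice (blue). Chromosome 4 has the lowest share (0.828%), and chromosomes 8 (3.97%) and 11 (3.95%) the highest.

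Runs of neighbouring genes in one direction reached 5 genes on chromosome 2 and 4 genes on chromosome 5, both higher in Aus. The 5 genes on chromosome 2 were listed at 0 in each Aromatic library and stood above 1 FPKM in none of the 7 Xian varieties, whereas they read between 2.89 and 13.6 FPKM in Latisai1. The second of them read 10.5 and 13.1 FPKM in HKG 98 and 21.3 and 15.2 FPKM in Garia, and exceeded 1 FPKM in 1 Intermediate variety. The 4 genes on chromosome 5 were likewise listed at 0 in each Aromatic library and not above 1 FPKM in the Xian varieties. The first of them, the most abundant, read 21 and 22.1 FPKM in HKG 98 and 17.9 and 18.3 FPKM in Garia. It read 2.05 FPKM in Latisai1, where the other 3 were listed at 0. Of the 5 Intermediate varieties, 4 exceeded 1 FPKM at this first gene. Adjusted p by limma for these 9 genes ranged from 0.181 to 0.892, and none was called.

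The densest stretch of 50 tested genes was on chromosome 10, where the 63rd to the 112th of 1072 tested genes held 13 of the wider set, 8 higher in Aus and 5 higher in Aromatic rice. A pair of abundant genes near its end were higher in Aus. The last read 469 and 473 FPKM in HKG 98, 154 and 138 FPKM in Garia, 29.1 and 30.1 FPKM in Gasym Hany and 44.9 and 49.1 FPKM in BASMATI 385. The one before it read 405 and 411 FPKM in HKG 98 but 9.99 and 9.30 FPKM in Garia, against 2.66 to 5.23 FPKM in the Aromatic libraries, so that the main break at that gene lay within Aus. Another read between 66.1 and 86.5 FPKM in the Aus libraries and between 16.5 and 20.4 FPKM in the Aromatic libraries. Among the genes higher in Aromatic rice in the same stretch, the highest read from 11.6 to 18.3 FPKM in the Aromatic libraries. It read from 2.65 to 4.47 FPKM in the Aus libraries. Some genes higher in Aus were below that level too, 1 of them at 1.86 to 3.12 FPKM in the Aus libraries. None of the 38 called genes lay there.

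**Figure D5:**
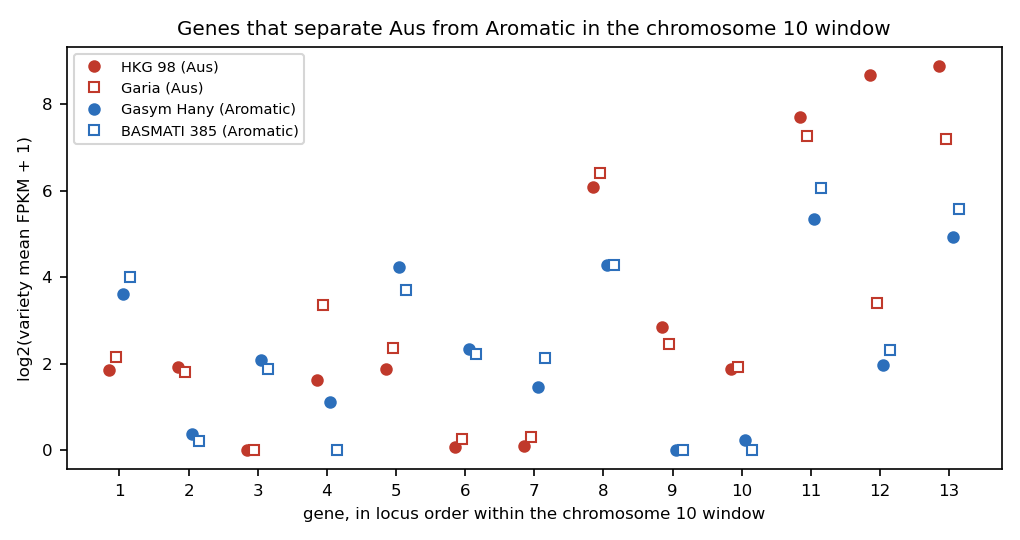
The 13 genes of the chromosome 10 stretch that separated the subpopulations, in locus order, as log2(variety mean FPKM + 1); circles are HKG 98 and Gasym Hany, open squares Garia and BASMATI 385, red for Aus and blue for Aromatic. At the second to last gene HKG 98 is far above the 3 other varieties (405 and 411 FPKM in its libraries), while at the last gene both Aus varieties lie above both Aromatic varieties.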

How the data were processed

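The authors trimmed the reads with Trimmomatic, mapped them with TopHat and computed FPKM with Cufflinks (2.2.5 per the processing notes), and deposited 1 FPKM value per gene and library. The column numbers resemble a joint run, so a scaling across libraries may be included. The study's methods name the MH63 and ZS97 genomes for RNA-Seq and the study names the Nipponbare sequence for its epigenome data of the varieties; the sources used here do not state which was used for these RNA-Seq libraries, whose identifiers are those of Nipponbare. The 24 files listed by MH63 identifiers were not used. Variety and replicate came from the labels; Aus and Aromatic varieties followed the rule of the comparison, the Intermediate varieties were named in the study's text, and the Xian and Geng varieties were read from the colours of its plots. Members, lists and cutoffs were chosen with earlier results of these data known.

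Values were taken as log2(FPKM + 1), and genes with a mean above 1 FPKM in Aus or Aromatic rice were tested. Variety means entered limma (3.58.1, R 4.3.3; lmFit, eBayes with trend, two-sided) with 5 subpopulations as groups and 12 residual degrees of freedom. Called genes had a log2 difference above 1.5 and passed 0.05 after Benjamini-Hochberg adjustment over all tested genes. An exact permutation of 2 against 2 varieties cannot give a p below 0.333 and was not used. No libraries held identical values (0 pairs). The fits were tested on simulated data with normal noise, with changes set only at genes of a higher mean level. That check does not cover changes at genes near 0 in most varieties.

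The rule for named genes took, per direction, the 12 called genes with the largest log2 difference and the 5 with the highest mean, at a mean of at least 10 FPKM and with no overlap of libraries, which 10 genes higher in Aus and 9 higher in Aromatic rice met. Of these, the identifiers of the 2 with the largest difference per direction are printed, since the table used here matched 0 identifiers; others are described by chromosome and were chosen after their values were seen. Functional lists and sequences were not analysed here. The 34 libraries were divided into classes by the share of values between 0.001 and 0.3 FPKM that lay at 1 common ratio to HKG 98 replicate 1, with a limit of 12%; the share was between 17.7% and 27.8% in the other first-class libraries and between 2.69% and 7.12% in the second class. The classes were found in the data and were not labelled. Alternatives were another pseudocount, filter, fold, scaling or unit, a replicate block, and leaving out libraries or varieties. Fits that take the class into account were chosen after seeing the data.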

Additional observations from a re-analysis of the deposited data

Results flagged for a closer look

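One of 12 groups of 4 libraries screened held a value far from the others. The 3 highest genes took 20.5% of the FPKM sum in BASMATI 385 replicate 1, and its gap to the nearest of the other Aromatic libraries was 0.871 of the range of the group, above Dixon's 95% critical value for 4 samples. Chance gives such a value in about 1 of 20 groups. That library is the one Aromatic library of the second class.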

How the results depend on the processing

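The count of 38 called genes was 16 with a filter at 5 FPKM, 183 with the variety as a random block, 701 with libraries as units and no replicate block, and 703 with libraries as units and the replicate block. The count was 110 with first-class and 222 with second-class libraries only, where Aus is 1 variety. It was 108 without HKG 98, 94 without Garia, 81 without Gasym Hany and 64 without BASMATI 385, and it ranged from 37 to 44 when 1 of the 8 libraries was dropped. A lone variety is then assumed to vary like the others. Removing the class effect gave 37 genes, 36 of them among the 38, and the class as a covariate gave 40, again with 36. Genes higher in Aromatic rice made up 57.9% of the calls, but 71.8% of 39 calls with a pseudocount of 0.1 (26 of them among the 38), 86.4% with the 4 varieties only, 68.8% with the filter at 5 FPKM and 35.2% without HKG 98. The direction of each of the 38 genes was the same in each alternative that tested it, in several of them by construction. Replicate numbers share only a number: deviations of same-numbered libraries correlated between -0.132 and 0.0736 over 6 pairs of varieties. The replicate block kept all 701 calls made without it.

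The count of 30 genes near 0 in one subpopulation became 58 with a high limit of 5 FPKM, 71 with first-class and 191 with second-class libraries only, and 30 to 37 with a library left out. With second-class libraries only, Garia is compared with BASMATI 385 replicate 1 alone, and with first-class libraries only HKG 98 is the one Aus variety. The 4 named genes were followed under 23 alternatives, which leave out those of the filter, the fold cutoff and the overlap of libraries. LOC_Os01g66850 and LOC_Os09g08920 were called under all 23. LOC_Os01g43895 was called under 22 and LOC_Os06g49930 under 19. FPKM carry no counts, so counting error limits low values to an unknown degree.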
